A study of Homo sapiens with 18 samples.

Results

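The lysyl oxidase family comprises 5 human genes, LOX, LOXL1, LOXL2, LOXL3 and LOXL4, and all 5 had a row among the 23106 genes counted in each of 18 samples. They were chosen by name as a gene family, with earlier results of these data known, although no measured value entered the rule itself. PolyA+ RNA had been sequenced from 3 established human cell lines, each in normoxia and in hypoxia, with 3 samples per condition. HKC-8 is a line from the proximal tubule of the kidney, RCC4 is a renal carcinoma line and HepG2 is a hepatocellular carcinoma line. The RCC4 cells, normoxic and hypoxic alike, were the RCC4+VHL derivative, in which wild-type VHL had been stably introduced. VHL is the subunit of the ubiquitin ligase that marks hypoxia-inducible factor for destruction, and parental RCC4 cells lack its function. Whether this derivative is 1 clone or a pool is not given in the sources used here. For the hypoxic samples, the labels give 0.5% oxygen for 16 h in HKC-8 and HepG2 cells and 1.0% oxygen for 24 h in RCC4 cells. In HKC-8 cells the sample titles read 0.1 for hypoxia, against the 0.5 of the other labels, and 21 for normoxia. The study's text on its RNA-seq, outside the methods, gives 0.5% and 16 h for the RCC4 cells too, so their exposure is uncertain. No label says that replicates came from separate cultures, so the p-values measure the spread between these samples, which may be technical.

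Lysyl oxidases are secreted, copper-dependent amine oxidases. They oxidise lysine residues of collagen and elastin to aldehydes, which then condense into the covalent cross-links that stiffen the extracellular matrix. LOX and LOXL1 are made as proenzymes that are cut by bone morphogenetic protein 1 and its relatives, whereas LOXL2, LOXL3 and LOXL4 carry scavenger receptor cysteine-rich domains ahead of the catalytic domain. LOX and LOXL2 are known as hypoxia-induced genes in tumour cells, where they have been studied for their part in invasion and in the preparation of metastatic sites.

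On GRCh37, LOX lies on chromosome 5 (121398890 to 121414108, minus strand), LOXL1 on chromosome 15 (74218330 to 74244478, plus strand), LOXL2 on chromosome 8 (23154410 to 23282841, minus strand), LOXL3 on chromosome 2 (74759385 to 74782817, minus strand) and LOXL4 on chromosome 10 (100007447 to 100027951, minus strand). Counts were made over whole genes, so a value refers to the exons of a gene together. The longest coding transcript had 7 exons for LOX and LOXL1, 14 for LOXL2 and LOXL3, and 15 for LOXL4.

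Counts summed to between 75441764 and 97984260 per sample in HKC-8, 42045335 and 51794355 in RCC4, and 40915980 and 48355303 in HepG2 cells. The HKC-8 samples were, by their labels, sequenced over 2 lanes. Depth, lane use and cell line therefore cannot be told apart. All 8 liver markers examined exceeded a level of 1 CPM (counts scaled to a fixed library total, so that samples of unequal depth can be compared) in every HepG2 sample. In RCC4 cells 7 of 10 kidney markers did so. In HKC-8 cells the kidney markers PAX8 and CDH16 exceeded it, whereas the proximal tubule markers CUBN, LRP2 and AQP1 stayed under 1 CPM. VHL had between 2844 and 3362 counts in each RCC4 sample, although a row for the whole gene cannot separate the introduced from the endogenous transcript.

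The promoter sequences are shown because hypoxia-inducible factor binds a core motif spelled ACGTG or GCGTG, and the members differed widely in their hypoxic response. Both spellings were searched on both strands of the 250 bases ahead of each RefSeq transcript start. A CACGTG palindrome therefore counts as a match on each strand. RefSeq promoter windows (a GRCh38.p14 table, each located by an exact match on GRCh37) were found for LOX, LOXL1, LOXL3 and LOXL4. There was no window for LOXL2, so its promoter could not be searched. The window of the LOX start that lies furthest upstream (chr5:121413955-121414204, minus strand) held 4 matches to ACGTG and 0 to GCGTG. The windows of the other 2 LOX starts, which overlap each other, held 1 match to each spelling. The 25 bases around each match read as follows, with the match in capitals and a CACGT marking a match on the opposite strand.
LOX site 1 (chr5:121414125-121414149): tccctgtgcaACGTGtctgggggga
LOX site 2 (chr5:121414056-121414080): gtccgccttgCACGTttccaatcgc
LOX site 3 (chr5:121414038-121414062): caatcgcattACGTGaacaaatagc
LOX site 4 (chr5:121413982-121414006): aactttgcaaACGTGccagaaagtt
The first bases of these matches lay 185, 116, 98 and 42 bases ahead of this RefSeq transcript start. Sites 2, 3 and 4, the other 2 LOX windows and the LOXL1 and LOXL3 windows lie inside the gene bounds given above. Those bounds come from GENCODE and start further upstream than the RefSeq starts of these 3 genes. Among 35116 promoter windows of the same length, 18.5% held at least 1 ACGTG and 0.669% held at least 4. The LOXL4 window (chr10:100027952-100028201, minus strand) is shown for contrast, because it held 0 matches to either spelling and had a GC content of 86.4%.
LOXL4: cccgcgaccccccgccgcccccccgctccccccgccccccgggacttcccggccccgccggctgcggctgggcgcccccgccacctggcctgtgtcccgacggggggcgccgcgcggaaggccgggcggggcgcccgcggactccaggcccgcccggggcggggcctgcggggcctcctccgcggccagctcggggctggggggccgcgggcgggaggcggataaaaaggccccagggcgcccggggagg
The single LOXL1 window also held 0 matches. LOXL3 had 0 matches ahead of one start and 1 GCGTG ahead of the other. LOXL1, LOXL3 and LOXL4 thus rose in HepG2 cells with no ACGTG in these windows. A link between matches and response was not tested. Either spelling was found in 43.2% of all windows, so that presence of a single match is common. A match is a description of these letters and not evidence of a bound site, and binding further away is not covered by these windows.

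The question put to each cell line was which of the family members changed with hypoxia. LOX and LOXL2 rose in all 3 lines, LOXL1 rose in HKC-8 and HepG2 cells, and LOXL3 and LOXL4 rose in HepG2 cells. In HKC-8 cells 3 of 5 members were called higher at an adjusted p under 0.05, against 11.2% of all 13536 genes tested, and 0 were called lower, against 9.12%. With the replicate number as a block the HKC-8 counts over all genes were 2836 higher and 2919 lower in place of 1522 and 1235, and the calls of the members did not change. In RCC4 cells 2 of the 4 members tested were higher, against 25.9% of 12811 genes, and 0 were lower, against 24.2%. In HepG2 cells all 5 were higher, against 19.9% of 13623 genes, and 0 were lower, against 19.2%. Over the members tested, the median log2 fold change was 0.46 for HKC-8, 0.70 for RCC4 and 2.80 for HepG2 cells, where the median of all genes tested lay at 0.00 in each line to 2 decimals. Adjusted p-values throughout are from edgeR's quasi-likelihood test with Benjamini-Hochberg adjustment over all genes tested, and levels are CPM after TMM scaling.

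**Figure D1:**
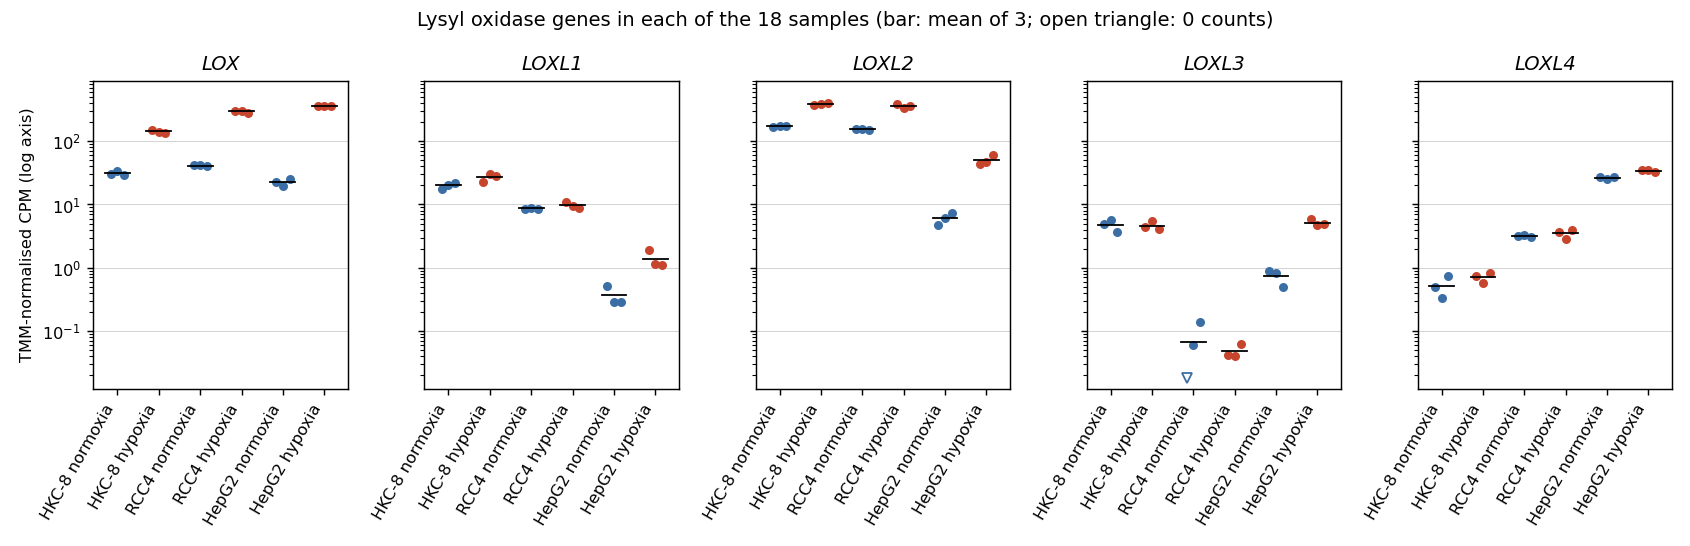
CPM after TMM scaling (log axis) of each lysyl oxidase gene in each of the 18 samples, with blue points for normoxia, red points for hypoxia and a black bar for the mean of 3 samples. LOX reached 357 CPM in hypoxic HepG2 cells, LOXL2 was lowest in HepG2 cells, LOXL3 was close to 0 in RCC4 cells (the open triangle marks the sample with 0 counts) and LOXL4 was highest in HepG2 cells.

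LOX, the founding member of the family and an enzyme that cross-links fibrillar collagen and elastin, had the highest fold change of the family in every line. In HKC-8 cells its level was 30.9, 33.7 and 29.8 CPM in the normoxic samples and 153, 139 and 138 CPM in the hypoxic samples. Every hypoxic sample lay far above every normoxic one. The log2 fold change was 2.19 ± 0.08 (SE, edgeR adjusted p = 1.80e-06), a 4.57-fold increase that ranked 130th of 13536 genes from the highest. In RCC4 cells the normoxic samples had 41.7, 42.0 and 40.1 CPM and the hypoxic samples 304, 306 and 285 CPM. The groups were again widely separated, with little spread within each. The log2 fold change was 2.86 ± 0.04 (SE, edgeR adjusted p = 3.03e-24), or 7.26-fold, the 22nd highest of 12811. In HepG2 cells the normoxic samples had 22.8, 19.9 and 25.5 CPM and the hypoxic samples 357, 359 and 357 CPM. HepG2 cells thus had the lowest normoxic and the highest hypoxic level of LOX, and the ranges of neighbouring groups did not overlap anywhere in the order of the 6 groups. The log2 fold change was 3.98 ± 0.08 (SE, edgeR adjusted p = 6.96e-13), or 15.7-fold, the 38th highest of 13623.

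LOXL2, which acts on the collagen IV of basement membranes, rose by a similar factor in both renal lines and from a much lower level in HepG2 cells. In HKC-8 cells it had 171, 174 and 175 CPM in normoxia and 381, 395 and 409 CPM in hypoxia. The hypoxic samples were all far above the normoxic ones, with little spread within the groups. The log2 fold change was 1.19 ± 0.07 (SE, edgeR adjusted p = 1.65e-05), or 2.29-fold. In RCC4 cells the values were 159, 159 and 151 CPM in normoxia and 390, 332 and 361 CPM in hypoxia. The hypoxic RCC4 samples spread more than the normoxic ones but stayed clear of them. LOXL2 was thus higher by a log2 fold change of 1.21 ± 0.04 (SE, edgeR adjusted p = 1.70e-16), or 2.31-fold. In HepG2 cells LOXL2 started from 4.78, 6.04 and 7.21 CPM in normoxia and stood at 44.1, 47.1 and 60.7 CPM in hypoxia. All hypoxic HepG2 samples still lay below all normoxic samples of both renal lines. The log2 fold change in HepG2 cells was 3.07 ± 0.15 (SE, edgeR adjusted p = 2.46e-09), or 8.42-fold.

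LOXL1, which is required for the deposition of elastic fibres, was a gene of intermediate level in the renal lines and of very low level in HepG2 cells. In HKC-8 cells it had 17.7, 20.3 and 22.0 CPM in normoxia and 23.0, 30.9 and 28.1 CPM in hypoxia. The groups did not overlap, but the lowest hypoxic sample lay close to the highest normoxic one. This gave a log2 fold change of 0.45 ± 0.13 (SE, edgeR adjusted p = 0.0410). All 3 same-numbered pairs were higher in hypoxia, and with the replicate number as a block the log2 fold change was 0.45 ± 0.08 (SE, edgeR adjusted p = 0.00114). In the fit with no block the call was lost on leaving out normoxic sample 1 (adjusted p = 0.161), normoxic sample 2 (0.0932), hypoxic sample 2 (0.0875) or hypoxic sample 3 (0.104), where the log2 fold change was 0.37, 0.46, 0.36 and 0.43, and over all alternatives the adjusted p ranged from 0.00114 to 0.161. In RCC4 cells the normoxic samples had 8.49, 8.96 and 8.47 CPM and the hypoxic samples 10.9, 9.49 and 8.94 CPM, so that the groups overlapped, and the log2 fold change of 0.18 ± 0.09 (SE, edgeR adjusted p = 0.116) did not pass. In HepG2 cells LOXL1 had 23, 13 and 12 counts in the normoxic samples and 79, 52 and 43 counts in the hypoxic samples, or at most 0.521 CPM against at least 1.11 CPM. The groups were separate despite the small counts. Here its log2 fold change was 1.90 ± 0.34 (SE, edgeR adjusted p = 0.000668), or 3.72-fold.

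LOXL3, a member that is needed for craniofacial and spinal development in mice, differed most in kind between the lines. In HKC-8 cells it had 4.92, 5.72 and 3.67 CPM in normoxia and 4.38, 5.53 and 4.03 CPM in hypoxia. The groups overlapped almost completely. The log2 fold change of -0.03 ± 0.20 (SE, edgeR adjusted p = 0.927) did not pass. In RCC4 cells LOXL3 had 0, 3 and 6 counts in the normoxic and 2, 2 and 3 counts in the hypoxic samples, which were too few to be tested, although the total counts of the RCC4 samples were similar to those of the HepG2 samples. In HepG2 cells it had 0.884, 0.828 and 0.501 CPM in normoxia and 5.86, 4.71 and 4.94 CPM in hypoxia. The hypoxic HepG2 samples thus reached the range of the HKC-8 samples, from normoxic counts of 21 to 39 and hypoxic counts of 191 to 246. Its log2 fold change was 2.80 ± 0.21 (SE, edgeR adjusted p = 2.89e-07), or 6.95-fold, the 97th highest of 13623.

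LOXL4 was the member with the smallest response among those called in HepG2 cells and the only one with its highest normoxic level there. In HKC-8 cells it had 41, 27 and 66 counts in normoxia and 59, 56 and 68 counts in hypoxia, all under 1 CPM. The groups overlapped, and the log2 fold change of 0.46 ± 0.34 (SE, edgeR adjusted p = 0.375) did not pass. In RCC4 cells the normoxic samples had 3.16, 3.32 and 3.09 CPM and the hypoxic samples 3.73, 2.80 and 3.95 CPM. These groups overlapped too, and the log2 fold change was 0.14 ± 0.15 (SE, edgeR adjusted p = 0.488). In HepG2 cells LOXL4 had 26.8, 24.9 and 27.6 CPM in normoxia and 34.7, 35.1 and 32.1 CPM in hypoxia. The hypoxic samples all lay above the normoxic ones by a small margin. With this spread the log2 fold change was 0.36 ± 0.07 (SE, edgeR adjusted p = 0.00141), or 1.29-fold. In 1 fit of all 18 samples the adjusted p was 0.0603, and over all alternatives it ranged from 7.34e-05 to 0.0603.

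**Figure D2:**
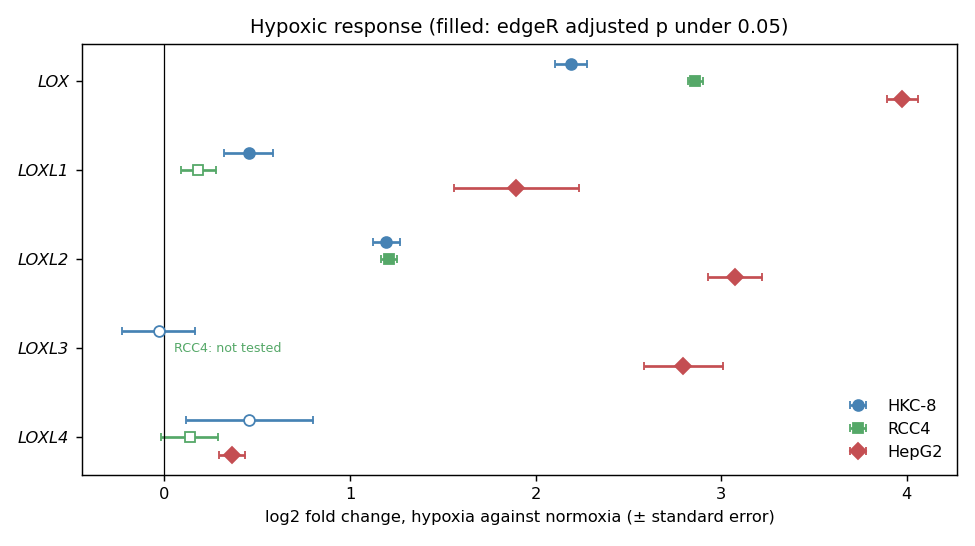
Log2 fold change in hypoxia against normoxia (horizontal axis, with its standard error) of each member in HKC-8 (circles), RCC4 (squares) and HepG2 cells (diamonds), filled where the edgeR adjusted p was under 0.05. LOX lay at 2.19, 2.86 and 3.98 in the order of the lines, LOXL3 lay near 0 in HKC-8 and at 2.80 in HepG2 cells, and LOXL3 was not tested in RCC4 cells.

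Whether the response differed between lines was tested for HKC-8 and HepG2 cells, whose labels give the same oxygen level and duration. The response was larger in HepG2 cells for LOX, LOXL1, LOXL2 and LOXL3, and the test did not pass for LOXL4. In this interaction of cell line and oxygen 4 of 5 members were called, against 9.30% of 15046 genes tested, and with the replicate number as a block 3019 in place of 1399 genes were called while the same 4 members remained. For LOX the response was larger by 1.79 ± 0.12 on the log2 scale (SE, edgeR adjusted p = 2.59e-07). For LOXL2 the difference was 1.88 ± 0.18 (SE, adjusted p = 9.87e-06) and for LOXL3 it was 2.83 ± 0.31 (SE, adjusted p = 4.58e-05). For LOXL1 it was 1.45 ± 0.34 (SE, adjusted p = 0.0143), and this call was lost without normoxic HepG2 sample 2 (1.30, adjusted p = 0.0631, the highest over all alternatives, which began at 0.000245). For LOXL4 the difference was -0.08 ± 0.26 (SE, adjusted p = 0.924), which does not show that the lines responded alike. If the HKC-8 titles rather than the labels give the true oxygen level, the lines also differed in exposure, and line and exposure cannot be told apart. RCC4 cells were left out of this test for the same reason.

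The normoxic levels were compared to find how the lines differed at rest. HepG2 cells had far less LOXL1 and LOXL2 and far more LOXL4 than both renal lines, whereas LOX differed by at most 1.81-fold between any pair of lines. Most genes differed between the lines, with 80.8% of 14806 genes called between RCC4 and HKC-8, 83.0% between HepG2 and HKC-8 and 83.3% between HepG2 and RCC4 cells, and the members called were 4, 5 and 5 of 5, so that these counts are close to the background. Against HKC-8 cells, HepG2 cells had a log2 difference of -5.74 ± 0.19 for LOXL1, -4.83 ± 0.12 for LOXL2 and -2.66 ± 0.32 for LOXL3 (SE, edgeR adjusted p = 3.77e-12, 1.00e-13 and 2.91e-06). LOXL4 went the other way, with a log2 difference of 5.68 ± 0.20 (SE, edgeR adjusted p = 5.44e-12), or 51.2-fold. LOX was lower in HepG2 than in HKC-8 cells by a log2 difference of -0.45 ± 0.09 (SE, edgeR adjusted p = 0.000469). RCC4 cells had a log2 difference from HKC-8 cells of 0.40 ± 0.09 for LOX (SE, edgeR adjusted p = 0.00104), -1.20 ± 0.13 for LOXL1 (adjusted p = 1.51e-06) and 2.62 ± 0.20 for LOXL4 (adjusted p = 3.03e-08). For LOXL2 the 2 renal lines did not differ past the threshold, with a log2 difference of -0.13 ± 0.09 (SE, edgeR adjusted p = 0.201). LOXL3 was lower in RCC4 than in HKC-8 cells (edgeR adjusted p = 1.85e-08), where 334 to 464 counts per sample in HKC-8 cells stood against 0 to 6 in RCC4 cells. Between HepG2 and RCC4 cells the log2 difference was -0.85 ± 0.09 for LOX, -4.54 ± 0.20 for LOXL1, -4.70 ± 0.11 for LOXL2 and 3.06 ± 0.17 for LOXL4, beside a median of 0.11 over all genes in that contrast, and LOXL3 was higher in HepG2 cells (edgeR adjusted p = 4.43e-05). These 3 contrasts share samples, so they are not independent of each other. In bulk RNA, fewer cells that express a gene and less RNA of it per cell cannot be told apart.

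In the order of the 6 groups, neighbours overlapped in some places only. The hypoxic HKC-8 and RCC4 samples overlapped for LOXL2, and the RCC4 samples of both conditions overlapped for LOXL1, LOXL3 and LOXL4. For LOXL3 the hypoxic HepG2 samples and both groups of HKC-8 samples formed a run of overlapping neighbours near 5 CPM. For LOXL4 the HKC-8 groups overlapped at the lower end.

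To compare levels between genes, CPM were divided by the length in kilobases of the longest coding transcript of each gene. On this scale the summed family level was 62.7 ± 1.41 in normoxic and 148 ± 3.47 in hypoxic HKC-8 cells (SD, n = 3), a ratio of 2.35. In RCC4 cells it was 54.8 ± 1.43 and 161 ± 8.31 (SD, n = 3), a ratio of 2.94. In HepG2 cells it was 13.8 ± 1.04 and 95.4 ± 1.72 (SD, n = 3), a ratio of 6.92. HepG2 cells thus had the lowest summed level in either condition and the largest ratio. LOXL2 made up most of the family in HKC-8 cells, with a mean share of 74.2% in normoxia and 72.0% in hypoxia. In RCC4 cells the LOXL2 share was 76.8% in normoxia and 60.2% in hypoxia, while that of LOX was 14.8% and 36.6%. In HepG2 cells LOXL4 held 53.3% in normoxia and 9.90% in hypoxia, while LOX held 32.4% and 73.8%. The share of LOX in HKC-8 cells was 9.89% in normoxia and 19.2% in hypoxia, so that in all 3 lines the mean LOX share was higher in hypoxia. Of the increase in the family sum, LOX made up 26.0%, 47.7% and 80.7% in the HKC-8, RCC4 and HepG2 lines, and LOXL2 made up 70.3%, 51.7% and 14.7%. With the union of all annotated exons as the length, LOX held 13.6% and 25.5% in HKC-8 cells and 32.0% and 76.7% in HepG2 cells, in normoxia and hypoxia. The leading member of each group was the same with either length, but LOX passed LOXL1 in normoxic HKC-8 cells and LOXL4 passed LOXL2 in hypoxic HepG2 cells. The union of exons also changed which member made up more of the increase in RCC4 cells, with 57.1% for LOX and 42.4% for LOXL2. These shares follow from the calls above and were not tested.

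**Figure D3:**
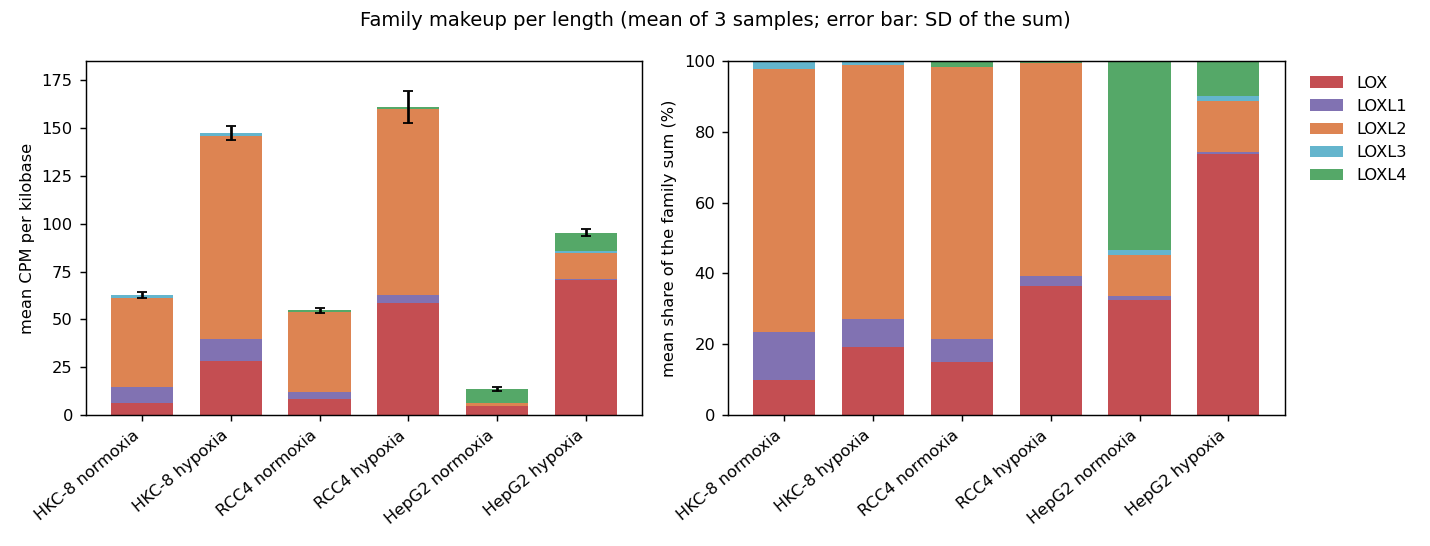
Mean CPM per kilobase of the longest coding transcript, stacked over the 5 members (left, error bars are the SD of the sum over 3 samples), and the mean share of each member in that sum in percent (right), for the 6 groups. LOXL2 led in both renal lines, LOXL4 led in normoxic HepG2 cells with 53.3% and LOX led in hypoxic HepG2 cells with 73.8%.

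Genes that work with the lysyl oxidases were examined beside them. Of 29 listed partners, 8 of 25 tested were higher and 0 lower in HKC-8, 6 of 22 higher and 4 lower in RCC4, and 8 of 23 higher and 2 lower in HepG2 cells, with median log2 fold changes of 0.27, 0.03 and 0.21. Of all genes tested, 11.2% were higher and 9.12% lower in HKC-8, 25.9% and 24.2% in RCC4, and 19.9% and 19.2% in HepG2 cells, so that the partners' count of higher genes in RCC4 cells was close to the background. The lysyl hydroxylases, which hydroxylate collagen lysines before they are cross-linked, had 2 of 3 members higher in every line, and PLOD3 was lower in RCC4 cells by a log2 fold change of -0.20 (edgeR adjusted p = 0.000217). PLOD2, which hydroxylates the telopeptide lysines, stood at 584 ± 41.6 CPM in normoxic and 1083 ± 77.9 CPM in hypoxic HKC-8 cells (SD, n = 3), at 527 ± 18.5 and 1056 ± 33.9 CPM in RCC4 cells, and at 203 ± 24.6 and 947 ± 53.6 CPM in HepG2 cells. PLOD2 rose in each line, with log2 fold changes of 0.89 ± 0.09 in HKC-8 (SE, edgeR adjusted p = 0.000377), 1.01 ± 0.03 in RCC4 (adjusted p = 4.97e-17) and 2.23 ± 0.08 in HepG2 cells (adjusted p = 2.14e-10). Among 8 collagen and elastin substrates, 2 of 6 tested were higher in HKC-8, 0 of 5 in RCC4 and 2 of 6 in HepG2 cells, and 0 were lower in any line. COL5A1, an alpha chain of collagen V, which nucleates collagen I fibrils, had 40.5 ± 7.35 CPM in normoxic and 91.9 ± 6.10 CPM in hypoxic HKC-8 cells (SD, n = 3) and rose there by 1.18 ± 0.13 on the log2 scale (SE, edgeR adjusted p = 0.000483). Of 11 activating proteases and scaffold proteins, 2 of 9 tested were higher in HKC-8, 2 of 7 in RCC4 and 3 of 8 in HepG2 cells, and 0 were lower. The 3 genes of copper supply, which load and carry the metal of the active site, gave 1 higher in each line and 0, 1 and 2 lower in HKC-8, RCC4 and HepG2 cells. Of 4 genes linked with the lysyl oxidases in epithelial-mesenchymal transition, 1 was higher in HKC-8, 1 was higher and 2 were lower in RCC4, and 0 of 3 tested were called in HepG2 cells. Tested genes of the last 3 groups had log2 fold changes between -1.14 and 0.88.

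Fibroblasts are a rich source of lysyl oxidases, so their markers were examined beside these results. Of 4 fibroblast markers only PDGFRB was above 1 CPM, and DCN, LUM and COL6A3 were under 1 CPM in every sample. The summed level of the list was 4.69 to 10.4 CPM in normoxic and 16.9 to 17.5 CPM in hypoxic HKC-8 cells, 41.5 to 46.9 and 61.4 to 64.4 CPM in RCC4 cells, and 21.3 to 22.4 and 54.0 to 61.9 CPM in HepG2 cells. The sums of hypoxic samples were thus above those of normoxic samples in each line, and this was almost all PDGFRB, while 3 of the 4 markers stayed near 0. The 3 endothelial markers summed to at most 3.15 CPM and the blood marker PTPRC to at most 0.0511 CPM.

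Each member overlaps another annotated gene. Overlap was measured between whole GENCODE gene spans, introns included, and not between exons. LOX shares 12376 bases with SRFBP1 on the opposite strand, LOXL3 shares 6665 bases with DOK1 and 1093 with HTRA2 on the opposite strand, and LOXL2 shares 39546 bases with ENTPD4 on the same strand. LOXL1, LOXL2 and LOXL4 also overlap noncoding RNAs on the opposite strand that have no row among the counts. The strand setting of the counting is not given in the sources used here, and without strand the reads of overlapping exons cannot be told apart. SRFBP1 had log2 fold changes of -0.37, 0.11 and -0.22 in the HKC-8, RCC4 and HepG2 lines, none of which passed (edgeR adjusted p = 0.0528, 0.161 and 0.0693). DOK1, an adaptor of receptor tyrosine kinases, had log2 fold changes of -0.71 in HKC-8 (edgeR adjusted p = 0.00643), -0.39 in RCC4 (adjusted p = 0.000898) and 0.87 in HepG2 cells (adjusted p = 0.0275). LOXL3 and DOK1 were thus both higher in hypoxic HepG2 cells. Whether their exons overlap was not measured, and the part of any overlap in these values was not tested. HTRA2, a mitochondrial protease and the other gene that overlaps LOXL3, had a log2 fold change of -0.25 in HepG2 cells (edgeR adjusted p = 0.0266) and did not pass in the other lines. ENTPD4, which overlaps LOXL2, had a log2 fold change of -0.17 in RCC4 cells (edgeR adjusted p = 0.0309) and did not pass in the other lines. These overlapping genes were singled out after their values were seen. Of the 10 nearest counted genes on either side of the members that do not overlap them, 6 were tested in each line. Of these 6, 1 was higher and 2 were lower in HKC-8, 1 was higher and 3 were lower in RCC4, and 1 was higher and 2 were lower in HepG2 cells. Over all genes tested the shares higher and lower were 11.2% and 9.12%, 25.9% and 24.2%, and 19.9% and 19.2%, and with 6 genes a line these counts are too few to be read against them. R3HCC1, which ends 618 bases from LOXL2, had log2 fold changes of -0.64 in HKC-8 (edgeR adjusted p = 0.00354), -0.51 in RCC4 (adjusted p = 1.03e-07) and -0.14 in HepG2 cells (adjusted p = 0.162), opposite in sign to LOXL2.

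Likeness of pattern was measured by Pearson's r of log2 CPM over the 18 samples, among 15302 genes. These are descriptions, since the 18 points fall into 6 groups that share cell line, oxygen and depth. For LOX the 3 most alike genes were PDK1 (0.979), the kinase that restrains pyruvate dehydrogenase, ALDOA (0.972), a glycolytic aldolase, and SPAG4 (0.969). For LOXL2 they were IPMK (0.986), PKM (0.984), the pyruvate kinase gene, and ZSWIM4 (0.976). The genes most like the other members were OAZ2, RPP25 and PITPNM3 for LOXL1 (0.986 to 0.992), NELFCD, CIRBP and NUMA1 for LOXL3 (0.969 to 0.977), and PAQR8, ARHGEF10L and SEMA4G for LOXL4 (0.995 to 0.997). Such values were common, since 25 genes had an r over 0.9 with LOX, 817 with LOXL1, 189 with LOXL2, 615 with LOXL3 and 1066 with LOXL4. After the mean of each cell line was taken away, so that only the variation within lines was left, LOX was most like YEATS2 (0.995), ERO1L (0.992), an oxidase of protein folding, and KCTD11 (0.992). LOXL2 was then most like WDR54 (0.983), GYS1 (0.982), the muscle glycogen synthase, and GBE1 (0.982), the glycogen branching enzyme. FBXL16, ALPK2 and CBX2 came first for LOXL1 (0.958 to 0.964), MFI2, LRRC25 and KRT37 for LOXL3 (0.897 to 0.904), and PAQR8, CYTH2 and PDZD7 for LOXL4 (0.908 to 0.919). Within lines an r over 0.9 was reached by 286 genes for LOX, 73 for LOXL1, 249 for LOXL2, 2 for LOXL3 and 5 for LOXL4. Among the members themselves, r between LOX and LOXL2 was 0.44 over all samples and 0.96 within lines. LOXL1 and LOXL4 had an r of -0.92 over all samples and 0.47 within lines, the former following the order of the cell lines.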

How the data were processed

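PolyA+ libraries (ScriptSeq v2) of 18 samples were counted. The authors trimmed adapters, aligned reads to GRCh37 with Tophat 2.0.8b and bowtie 1.0.0, dropped fragments mapping to several places with SAMtools 0.1.19, and counted reads per UCSC gene with HTSeq 0.5.4p3 with intersection-strict matching. What was deposited is the raw count per gene and sample. Dropping such fragments lowers the counts of near-identical genes.

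From the counts, each cell line was fitted apart with edgeR 4.0.16 in R 4.3.3 (filterByExpr, TMM, glmQLFit, glmQLFTest), and genes were called at an adjusted p under 0.05 (Benjamini-Hochberg). The SE is the absolute log2 fold change over the square root of F. HKC-8 against HepG2 responses were tested as an interaction in 12 samples and normoxic levels in 9 samples. CPM use TMM factors over all 18 samples. Transcript lengths come from GENCODE v44lift37. The fits were tested on simulated counts that were independent between samples and had the same dispersion for all genes. They recovered 98% to 100% of 200 genes changed by a log2 fold change of 1.5 in size. Of the genes called, 3.4% to 5.77% were false. Replicates that deviate together, and spread that differs between genes, were not simulated.

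Same-numbered normoxic and hypoxic samples, as numbered in the labels, deviated together in HKC-8 cells (r = 0.113, 0.469 and 0.456 across genes). In HepG2 cells r was positive as well (0.162, 0.0611 and 0.181), with a mean of 0.135 against 0.346 in HKC-8 cells. In RCC4 cells r was -0.0106, 0.0332 and 0.0136, with a mean of 0.0121. The hypoxic sample most like a normoxic one had the same number for 2 HKC-8, 1 RCC4 and 3 HepG2 samples. The main fits ignored the numbers, which entered only as the block of an alternative fit. Replicates differed by more than sampling noise (chi-square per degree of freedom 4.57 to 91.5).

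The members and lists were chosen with earlier results of these data known. A partner gene was named if some line had it called with a log2 fold change of 1 or more in size, and the 3 most alike genes by Pearson's r. R3HCC1 and the overlapping genes were named after their values were seen. Alternatives were DESeq2 1.42.0, median-of-ratios factors, other count filters, 1 fit of all 18 samples, the replicate block, each sample left out, the union of exons as length, Spearman's rho, another prior count, and, added after seeing the data, total count scaling.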

Additional observations from a re-analysis of the deposited data

Results flagged for a closer look

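The hypoxic response of 4 members differed between HKC-8 and HepG2 cells by a test of the difference itself, the interaction of cell line and oxygen in edgeR over 12 samples. The log2 response was larger in HepG2 cells by 1.79 for LOX, by 1.45 for LOXL1, by 1.88 for LOXL2 and by 2.83 for LOXL3. For all 4 genes the HepG2 cells had the lower normoxic mean, and whether this bears on the response was not tested. The call of LOXL1, which had few counts in HepG2 cells, was lost in 1 of 19 alternatives. The HKC-8 titles give another oxygen level than the labels, so the lines may also have differed in exposure.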

How the results depend on the processing

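Of 514 repeats of the members' tests under the alternatives, 503 kept their direction and their side of the threshold, 6 lost the call, 5 changed sign and 0 gained a call. The total includes the normoxic contrasts, some of them refitted without a sample of the line outside the contrast. Such repeats could change little, so the total does not measure how firm the hypoxic calls are. The sign changes were confined to differences that never passed. For LOXL3 in HKC-8 cells the log2 fold change ranged from -0.19 to 0.12 when samples were left out, with 0.12, 0.01 and 0.06 without normoxic sample 2, hypoxic sample 1 and hypoxic sample 3. For LOXL4 the difference between lines ranged from -0.44 to 0.15, with 0.15 and 0.04 without normoxic HKC-8 sample 2 and hypoxic HKC-8 sample 3. The 6 lost calls were 4 of LOXL1 in HKC-8 cells, 1 of LOXL4 in HepG2 cells and 1 of LOXL1 between lines. A minimum of 10 counts in every sample removed LOXL3 from the normoxic comparison.

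Counts over all genes moved more. With the replicate block the calls in HKC-8 cells numbered 2836 higher and 2919 lower and those between lines 3019, and the block changed no call of a member. In 1 fit of all 18 samples they numbered 2503 and 2510 in HKC-8, 1867 and 1419 in RCC4 cells and 2219 between lines. Total count scaling gave 4081 lower genes in HepG2 cells and moved the median of all genes there to -0.10. When each sample was left out, HKC-8 cells had 687 to 1794 higher and 326 to 1489 lower genes, lowest without normoxic sample 1, and the calls between lines ranged from 911, without hypoxic HepG2 sample 1, to 1890. The cause was not tested. The genes most like a member depended on the measure, and with Spearman's rho 0 to 2 of the 3 named remained. With 0 to 6 counts of LOXL3 per RCC4 sample, no response of it could be tested there.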
